A study of Mus musculus with 2 samples.

Results

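Glucose enters erythroid cells through the transporter Slc2a1 and is broken down by the enzymes of glycolysis, which feed a side branch through Bpgm. The 10 genes described here are Slc2a1, the hexokinases Hk1 and Hk2, the phosphofructokinase Pfkl, the aldolase Aldoa, Gapdh, Bpgm, the pyruvate kinases Pklr and Pkm, and the lactate dehydrogenase Ldha. They were chosen by symbol from the 27998 genes of the deposited matrix, and each symbol matched 1 gene. All 10 had UMIs (unique molecular identifiers, each counting 1 captured transcript end), from 346 for Hk2 to 65623 for Ldha over all cells kept.

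The material was fetal liver of C57BL/6 mouse embryos at e13.5, with no genotype or treatment difference between groups. Livers of 7 embryos were pooled before the cells were depleted of part of their Ter119+ fraction and Ter119+ cells were added back, so the numbers of cells per stage do not describe the liver. The assay was CITE-seq, in which transcripts and DNA-barcoded antibodies are counted in the same single cell, and gave 1 cDNA library and 1 antibody library of the same cells. There was therefore no replicate, no p-value is given, and intervals (95%, in brackets) cover counting error only, not differences between embryos, libraries or gates. The antibodies that set the stages carried the barcodes GAGGCGATTGAT for Ter119, a marker of maturing erythroid cells, and CGAAGAAGGAGT for CD71, the transferrin receptor.

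Of 7863 deposited cells, with a median of 5707 UMIs, 7244 were kept and 5956 fell into an erythroid stage. The Ter119-low cells were S0-low (1321 cells), S0-medium (1022 cells) and S1 (593 cells), in the order of rising CD71. S2 (1287 cells) had intermediate Ter119 with high CD71, S3 (829 cells) had high Ter119 with high CD71, and S4/S5 (904 cells) had high Ter119 with lower CD71. In the study, S0-low holds mainly BFU-E, the earliest committed erythroid progenitors, S0-medium to S2 hold CFU-E, which follow them, and S3 to S5 are differentiating erythroblasts. Of the 14 erythroid markers all had UMIs in every stage, and their summed level ran from 12095 CPM (counts per 1000000 UMIs of the cell) in S0-low to 612064 CPM in S4/S5. The list includes globin genes, which weigh heavily in the later sums. The pooled non-erythroid cells, named next, also had UMIs of all 14, with a sum of 15092 CPM. The sum therefore does not set S0-low apart from them. A further 743 cells lay in clusters named from markers as non-erythroid, namely 81 macrophage-like, 113 and 212 cells of 2 myeloid-like clusters (one led by granule genes, one high in Ccr2), 148 megakaryocyte-like and 189 hepatocyte-like cells. The 10 genes were left out of the clustering.

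Mature red cells have no mitochondria and depend on glycolysis for ATP. Hexokinase, phosphofructokinase and pyruvate kinase catalyse the committed, regulated steps of the pathway. Bpgm makes 2,3-bisphosphoglycerate from a glycolytic intermediate, and this metabolite lowers the affinity of adult haemoglobin for oxygen. Globin transcripts came to dominate the later stages, with 1.09% of UMIs in S0-low, 2.85% in S1, 37.9% in S3 and 63.9% in S4/S5, so each gene's share of all UMIs depends on them. The level of each gene is therefore given as the mean over cells of CPM and, where it matters, as CPM of the non-globin UMIs. The median of all measured genes was at a ratio of 0.416 in S3 over S1 and 0.535 in S4/S5 over S3 on the CPM scale, and at 0.668 and 0.885 on the non-globin scale.

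Across the 6 stages the 10 genes followed different courses. Slc2a1 and Bpgm were many times higher in S3 and S4/S5 than in the progenitors, Pklr was highest in S1 and S2, Hk1 and Pfkl were near level up to S1 and lower after S2, and Hk2, Aldoa, Gapdh, Pkm and Ldha were highest in S0-low on both CPM scales. For UMIs per cell, Aldoa, Gapdh and Ldha were highest in S0-medium, at 3.53, 2.28 and 15.7 against 2.94, 1.85 and 14.1 for S0-low. Outside the erythroid stages Aldoa and Ldha were at 245 CPM or more in every named non-erythroid group and Pkm at 569 CPM or more in all but hepatocyte-like cells, while Slc2a1 and Bpgm were low in every named non-erythroid group.

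**Figure D1:**
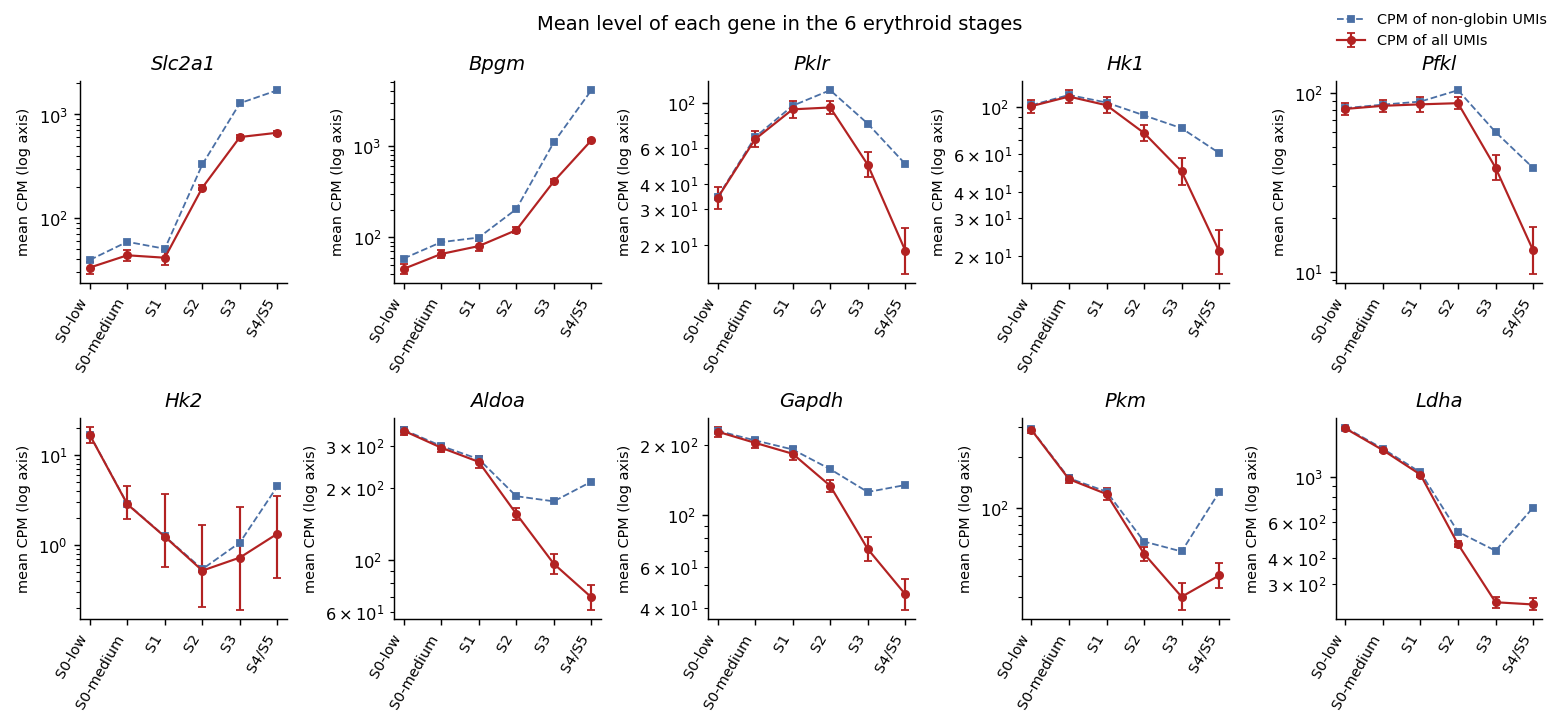
Mean level of each of the 10 genes in the 6 erythroid stages, on log axes. Red points are CPM of all UMIs with 95% counting intervals, and blue squares are CPM of non-globin UMIs without intervals. Slc2a1 runs from 33.0 to 666 CPM and Bpgm from 45.1 to 1160 CPM, Pklr peaks at 95.3 CPM in S2, and Ldha goes from 1733 to 238 CPM.

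Slc2a1, the glucose transporter GLUT1, is encoded on the plus strand of chromosome 4 (119108745 to 119137330, GRCm38, as for all positions given here). S0-low cells averaged 33.0 CPM (28.9–37.7), S0-medium cells 43.4 (38.2–49.2), S1 cells 41.1 (34.7–48.8), S2 cells 196 (184–209), S3 cells 605 (578–633) and S4/S5 cells 666 (638–695). The 3 Ter119-low stages were close to each other, and the large difference came with Ter119. S3 was 14.7 times S1 (12.4–17.4), which placed Slc2a1 at percentile 99.8 of the genes measured in that comparison. This ratio was 25.6 for non-globin CPM and 7.37 for UMIs per cell. In the named non-erythroid groups the level lay between 38.6 and 56.6 CPM, so the Ter119-low stages did not stand above cells of other types. UMIs of Slc2a1 were found in 71.9% of S3 cells and 56.0% of S4/S5 cells, and in 51.0% and 43.5% after thinning each cell to 2000 UMIs, against 27.3% and 6.95% of S0-medium cells. Fewer S4/S5 than S3 cells thus had a Slc2a1 UMI although the mean was slightly higher. The ratio of S4/S5 over S3 was 1.10 (1.03–1.17) on the CPM scale and 1.34 (1.25–1.42) on the non-globin scale, but 0.967 for UMIs per cell and 0.903 with antibodies scaled within each cell, so its direction depends on unit and gate.

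Bpgm, bisphosphoglycerate mutase, is encoded on the plus strand of chromosome 6 (34476356 to 34505136). S0-low cells averaged 45.1 CPM (40.1–50.7), S0-medium cells 65.7 (59.4–72.7), S1 cells 80.2 (71.6–90.1), S2 cells 120 (111–130), S3 cells 411 (390–433) and S4/S5 cells 1160 (1124–1196). Each stage was higher than the one before it on the CPM scale, although the intervals of S0-medium and S1 just overlapped. On the non-globin scale S1 over S0-medium was 1.12 (0.921–1.37), an interval that held 1. The median cell was at 0 CPM in S0-low and S0-medium, while single cells reached 1921 and 2712 CPM. The part of such cells in these means was not tested. For UMIs per cell S2 over S1 was 0.941 (0.839–1.06) and the share of cells with a UMI was 49.2% in S1 and 42.6% in S2, so the direction of this step depends on the unit. S3 was 9.12 times S0-low (8.05–10.3) and 5.12 times S1 (4.53–5.79), and S4/S5 was 2.82 times S3 (2.66–3.0). Of 5515 genes measured in that last step, 0.290% were at least 2-fold higher on the CPM scale, and Bpgm was among them. A Bpgm UMI was found in 24.5% of S0-low, 59.8% of S3 and 88.3% of S4/S5 cells, or 7.87%, 40.5% and 79.1% after thinning. The S0-low interval overlapped that of every named non-erythroid group, so it did not set S0-low apart from any of them. Bpgm levels of these groups lay between 23.5 and 47.8 CPM. The unit moved the ratio of S3 over S0-low from 6.31 for UMIs per cell to 18.8 for non-globin CPM, and that of S3 over S1 from 2.65 to 11.1.

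The 250 bases before the start of both genes are printed from RefSeq (GRCm38.p6), with those of Pklr and Ldha, because these 4 genes carry the 3 contrasting courses. All 10 genes matched the table, with 16 starts. RefSeq starts can differ from the ends of the gene positions given here. The stretches before the first starts of Ldha, Gapdh and Aldoa lie inside those positions. The stretches before the first starts of Pklr and Hk1 partly overlap them. Capitals mark matches, on either strand, to the letters AGATAA or AGATAG and likewise TGATAA or TGATAG (together the GATA motifs), to the letters CACCC and to the letters ACGTG, and overlapping matches of 1 motif count once.
Bpgm, chr6:34476106-34476355, plus strand: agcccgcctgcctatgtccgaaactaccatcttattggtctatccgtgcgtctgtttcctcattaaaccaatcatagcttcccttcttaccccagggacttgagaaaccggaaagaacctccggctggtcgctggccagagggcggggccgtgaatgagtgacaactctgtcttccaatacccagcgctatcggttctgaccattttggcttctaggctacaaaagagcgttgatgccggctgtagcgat
Slc2a1, chr4:119108495-119108744, plus strand: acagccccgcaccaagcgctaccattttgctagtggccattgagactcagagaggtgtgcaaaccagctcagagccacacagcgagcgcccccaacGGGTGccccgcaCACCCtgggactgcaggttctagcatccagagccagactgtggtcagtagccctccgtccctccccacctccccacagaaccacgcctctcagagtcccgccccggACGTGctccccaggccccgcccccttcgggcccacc
Pklr, chr3:89135892-89136141, plus strand: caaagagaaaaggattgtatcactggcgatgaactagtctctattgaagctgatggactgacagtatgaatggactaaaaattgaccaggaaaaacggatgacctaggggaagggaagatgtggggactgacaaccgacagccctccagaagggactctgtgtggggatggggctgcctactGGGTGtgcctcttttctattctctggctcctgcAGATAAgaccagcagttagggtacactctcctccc
Ldha, chr7:46845554-46845803, plus strand: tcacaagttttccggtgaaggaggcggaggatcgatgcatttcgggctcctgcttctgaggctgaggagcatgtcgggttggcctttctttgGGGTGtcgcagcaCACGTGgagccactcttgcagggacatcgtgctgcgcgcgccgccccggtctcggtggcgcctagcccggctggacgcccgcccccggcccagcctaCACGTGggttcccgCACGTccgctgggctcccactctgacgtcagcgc
The Bpgm stretch held no match to any of these letters. That of Slc2a1 held 2 CACCC and 1 ACGTG match, that of Pklr 1 GATA and 1 CACCC match, and that of Ldha 1 CACCC and 3 ACGTG matches. Over all 32851 starts of the same length in the table, 26.5% held a GATA match, 52.0% a CACCC match and 16.6% an ACGTG match, while 1.95% held at least 2 and 0.256% at least 3 ACGTG matches. Of the 16 starts of the 10 genes, 4 held a GATA, 10 a CACCC and 6 an ACGTG match. The stretches of 2 Aldoa starts, 1193 and 1269 bases after its first, overlap. They share the same 1 CACCC and 1 ACGTG match, which are counted for each. For Pklr and Ldha the first of 2 listed starts is shown, and the second, 481 bases further on for Pklr and 1278 for Ldha, held no match. The library reads transcript ends, so which start was used was not measured.

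Within the Ter119-high cells, Slc2a1 and Bpgm parted. When these cells were ordered by falling CD71 and split into 5 equal parts, Bpgm was at 273 CPM (248–300) in the part with the most CD71, then at 447 (413–484), 884 (834–935), 1043 (989–1099) and 1364 CPM (1302–1429). Slc2a1 was at 514 (477–553), 619 (577–664), 843 (793–897), 757 (709–807) and 451 CPM (414–491). Bpgm was thus highest in the part with the least CD71, where Slc2a1 was lowest, and Slc2a1 was highest in the middle part. On the non-globin scale Bpgm kept this order, from 634 to 5258 CPM, and Slc2a1 again peaked in the middle part at 2016 CPM, with 1005 CPM in the first part and 1267 CPM in the last. The globin share of UMIs was 31.3% in the first part and 71.6% in the last.

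The clusters, made without both genes, showed the same separation as a description. Cluster 9, with 562 cells and a globin share of 60%, had Slc2a1 at 1569 CPM (1514–1626) and Bpgm at 1116 CPM (1070–1164). Cluster 11, with 468 cells and a globin share of 75%, had Slc2a1 at 101 CPM (87.2–117) and Bpgm at 1534 CPM (1480–1590). Slc2a1 was among the 10 leading genes by fold in cluster 9, and Bpgm led cluster 11. With each of the 904 S4/S5 cells thinned to 2000 UMIs, 313 had UMIs of both genes, 402 of Bpgm alone, 80 of Slc2a1 alone and 109 of neither. Spearman's correlation of Bpgm and Slc2a1 was 0.00 over these cells and 0.16 over the 829 S3 cells. In S3, 194 thinned cells had UMIs of both, 142 of Bpgm alone, 229 of Slc2a1 alone and 264 of neither. The 2 genes thus differed between parts and clusters, while the correlation within a stage was 0.00 or weakly positive. Parts 4 and 5 by CD71 lay within S4/S5, and from one to the other Bpgm went from 1043 to 1364 CPM and Slc2a1 from 757 to 451 CPM. Thinned S4/S5 cells averaged only 2.32 UMIs of Bpgm and 1.28 of Slc2a1. With so few UMIs per cell, the correlation cannot exclude opposite courses within a stage. Slc2a1 UMIs at this depth could still carry a correlation. With Xpo7, another of the 10 leading genes of cluster 9, it was 0.57 in S4/S5 and 0.43 in S3. Cells with primitive-type embryonic globins (73 cells, 40 of them in S4/S5) had Bpgm at 692 CPM (609–785) and no more than 6 UMIs of Slc2a1. With embryonic-globin-rich cells left out, the S4/S5 over S3 ratio was 2.93 for Bpgm and 1.13 for Slc2a1.

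**Figure D2:**
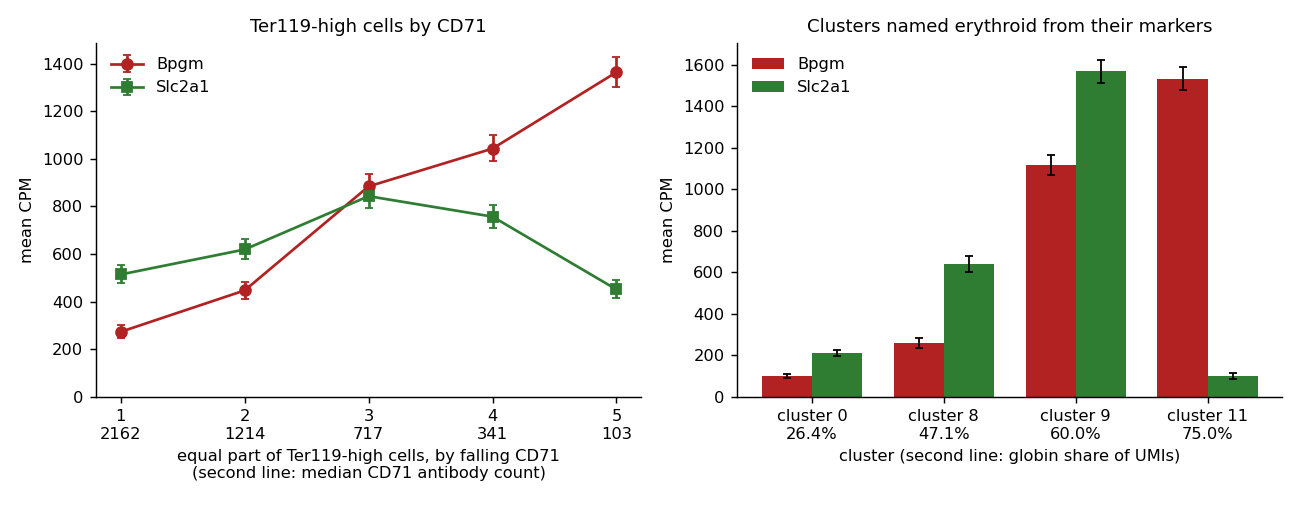
Bpgm (red) and Slc2a1 (green) in late erythroid cells, as mean CPM with 95% counting intervals. Left, 5 equal parts of the Ter119-high cells by falling CD71, in which Bpgm goes from 273 to 1364 CPM and Slc2a1 peaks at 843 CPM. Right, the 4 clusters named erythroid from their markers, where Slc2a1 is at 1569 CPM in cluster 9 and at 101 CPM in cluster 11.

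The hexokinases phosphorylate glucose on entry. Hk1 (chromosome 10 from 62268855 to 62379920, minus strand) averaged 101 CPM (93.7–108) over S0-low cells, 112 (105–120) over S0-medium, 102 (93.3–112) over S1, 75.5 (69.5–82.2) over S2, 49.8 (43.2–57.4) over S3 and 21.0 CPM (16.5–26.4) over S4/S5 cells. On the non-globin scale its S4/S5 over S3 ratio was 0.765 (0.572–1.02), against 0.421 (0.324–0.548) on the CPM scale. Hk2 (chromosome 6 from 82725025 to 82774454, minus strand) was low throughout, with 16.7 CPM on 133 UMIs over S0-low cells, 2.83 CPM (1.95–4.55) over S0-medium and 1.23 CPM (0.560–3.67) over S1 cells, and at 0.516 to 1.33 CPM after that on 5 to 9 UMIs a stage. S1 over S0-low was 0.0735 (0.0371–0.146) for Hk2, whereas for Hk1 it was 1.01 (0.906–1.14). For Hk2 UMIs per cell gave 0.167, and the value was 0.125 with pooled CPM or with antibodies scaled within each cell. Hk1 therefore made up 88.7% (86.8–90.5) of the UMIs of both genes in S0-low, 98.5% (97.2–99.3) in S1 and 98.1% (95.6–99.4) in S3. In macrophage-like cells it made up 2 of 22 UMIs (9.09%, 1.12–29.2) and in hepatocyte-like cells 12 of 36 (33.3%, 18.6–51.0), while megakaryocyte-like cells had a Hk1 share of 95.4% (90.8–98.1), which lay within the range of the stages. Their Hk1 level of 114 CPM (93.2–140) had an interval that overlapped those of the 3 Ter119-low stages.

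Pfkl, the liver-type phosphofructokinase (chromosome 10 from 77986947 to 78009807, minus strand), kept between 81.0 and 87.2 CPM in the first 4 stages, and all neighbours among these overlapped. It was at 38.1 CPM (32.5–44.8) in S3 and 13.2 CPM (9.79–17.8) in S4/S5. The muscle-type gene Pfkm had its own course, at 14.1 CPM in S0-low, 33.8 CPM in S1 and 5.78 CPM in S3, with S1 at 2.40 times S0-low (1.89–3.04). Pfkl held 72.6% (69.4–75.7) of the UMIs of the 3 phosphofructokinase genes in S1 and 82.3% (77.0–86.8) in S3.

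Aldoa (chromosome 7 from 126795234 to 126800994, minus strand), which splits fructose bisphosphate, was at 349 CPM in S0-low, 258 in S1, 96.1 in S3 and 69.5 CPM in S4/S5. Neighbouring stages did not overlap in their intervals. Gapdh (chromosome 6 from 125161852 to 125166467, minus strand), which makes the intermediate that Bpgm uses, was at 229 CPM in S0-low, 184 in S1, 71.7 in S3 and 45.8 CPM in S4/S5. The level of Gapdh is uncertain, as 41 of 41 stretches of 98 bases taken from the last 500 bases of its transcript fit another place in the mouse genome equally or nearly as well, so reads can be lost or counted for copies. The same was 3 of 41 for Pkm and 0 of 41 for the other members. From S3 to S4/S5, Aldoa and Gapdh were lower on the CPM scale (ratios 0.723 and 0.639) while on the non-globin scale Aldoa was at 1.21 (1.02–1.44) and Gapdh at 1.07 (0.870–1.32).

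The pyruvate kinases make the last ATP of the pathway, Pklr in red cells and liver and Pkm in most other cells. Pklr (chromosome 3 from 89136122 to 89146815, plus strand) averaged 34.0 CPM (29.9–38.6) over S0-low cells, 66.4 (60.6–72.9) over S0-medium, 93.3 (84.8–103) over S1, 95.3 (88.5–103) over S2, 49.7 (43.3–57.1) over S3 and 18.7 CPM (14.4–24.1) over S4/S5 cells. For S4/S5 over S0-low its ratio was 0.551 (0.420–0.724) on the CPM scale and 0.342 for UMIs per cell, but 1.46 (1.09–1.95) on the non-globin scale. The direction of this difference thus depends on the unit. For S3 over S0-low the ratio was 1.46 (1.22–1.76) on the CPM scale and 2.31 (1.91–2.79) on the non-globin scale. Pklr was the one member at least 2-fold higher in S1 than in S0-low, at 2.75 times (2.35–3.21). Pkm (chromosome 9 from 59656576 to 59679372, plus strand) went the other way over this step, from 289 CPM (277–301) to 148 (141–156) and 121 CPM (112–131), and on to 53.8 (49.0–59.2) in S2. It was lowest in S3 on 178 UMIs, and S4/S5 was 1.34 times S3 (1.06–1.70), at 40.1 CPM (33.9–47.4), though this ratio was 2.23 for non-globin CPM and turned to 0.902 for UMIs per cell. Pklr was thus a small part of the UMIs of both kinases in S0-low, 9.88% (8.91–10.9). The same share was 27.4% (25.6–29.2) for S0-medium, 41.1% (38.5–43.7) for S1, 60.2% (57.8–62.7) for S2, 58.7% (53.9–63.4) for S3 and 31.4% (25.7–37.5) for S4/S5. Hepatocyte-like cells had a share of 30.3% (22.3–39.3) on low counts of both genes, and macrophage-like cells had 1.08% (0.295–2.74). The Pkm ratio of S1 over S0-low was 0.420 (0.385–0.457) on the CPM scale and 0.593 for UMIs per cell, where it no longer passed 2-fold. The size of the first step depends on the gate, with S1 over S0-low for Pklr from 2.35 with a tighter lineage limit to 12.5 with antibodies scaled within each cell.

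In the Ter119-low cells split into 5 equal parts by rising CD71, Pklr was at 10.3, 49.3, 59.2, 74.2 and 93.2 CPM, and Pkm at 407, 206, 158, 138 and 121 CPM. Hk2 was at 22.2 CPM in the part with the least CD71 and at 1.24 CPM in the part with the most. The 13 myeloid markers, all with UMIs in both stages, had a summed level of 825 CPM in S0-low and 157 CPM in S0-medium, and the mast or basophil markers had 17.7 and 0.754 CPM (5 and 3 of 6 with UMIs). These lists moved in the same direction as Pkm and Hk2 over this step, and their part in the result was not tested. The unnamed cluster 4 (485 cells), led by Ifitm1, Hmga2 and Cd34, had median counts of 5 for Ter119 and 23 for CD71. It was not left out of the stages, and had Hk2 at 31.9, Pkm at 531 and Pklr at 2.56 CPM. The unnamed cluster 3 (362 cells), with a median CD71 count of 73, had 10.5, 362 and 18.9 CPM. The part of either cluster in the S0-low levels was not tested. From S0-medium to S1, where the myeloid sum was 157 and 124 CPM, Pkm went from 148 to 121 CPM and Pklr from 66.4 to 93.3 CPM.

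Ldha, which turns pyruvate into lactate (chromosome 7 from 46842274 to 46855627, plus strand), averaged 1733 CPM (1704–1762) over S0-low cells, 1356 (1331–1380) over S0-medium, 1029 (1003–1057) over S1, 470 (456–485) over S2, 244 (229–260) over S3 and 238 CPM (223–255) over S4/S5 cells. The intervals of S3 and S4/S5 overlapped, and those of all earlier neighbours did not. On the non-globin scale S4/S5 was 1.63 times S3 (1.47–1.80) and S3 was 0.413 times S1 (0.382–0.446). For UMIs per cell S4/S5 was 0.709 times S3 (0.656–0.767), so the direction of this last step depends on the unit. Its partner Ldhb was almost absent from erythroid cells, as Ldha held 99.6% (99.1–99.8) of the UMIs of both in S3. This was not particular to erythroid cells. The Ldha share was 99.7% in megakaryocyte-like, 99.4% in macrophage-like and 98.5% in Ccr2-high myeloid-like cells. It was 94.9% (93.3–96.3) in granule-gene myeloid-like and 88.5% (87.5–89.4) in hepatocyte-like cells.

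The mutase Pgam1 works on the main path beside the branch of Bpgm, and the balance of their transcripts turned over. Bpgm made up 12.6% (11.5–13.8) of the UMIs of both in S0-low. This share was 21.5% (19.9–23.0) for S0-medium, 31.7% (29.2–34.2) for S1, 48.5% (46.2–50.8) for S2, 84.2% (82.5–85.8) for S3 and 95.2% (94.5–95.8) for S4/S5, against 7.64% (6.71–8.64) in non-erythroid cells. Pgam1 itself went from 271 CPM in S0-low to 136 in S1, 58.9 in S3 and 52.5 CPM in S4/S5. The share is uncertain in level, because 40 of 41 stretches from the end of Pgam1 fit another place in the genome, so that reads can be lost or counted for copies. Among the glucose transporters, Slc2a1 held 59.9% (55.6–64.0) of the UMIs of Slc2a1 and Slc2a3 in S0-low, 67.1% (61.5–72.3) in S1 and 98.6% (98–99.1) in S3. These shares count transcript ends, with no correction for differences in capture between genes.

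**Figure D3:**
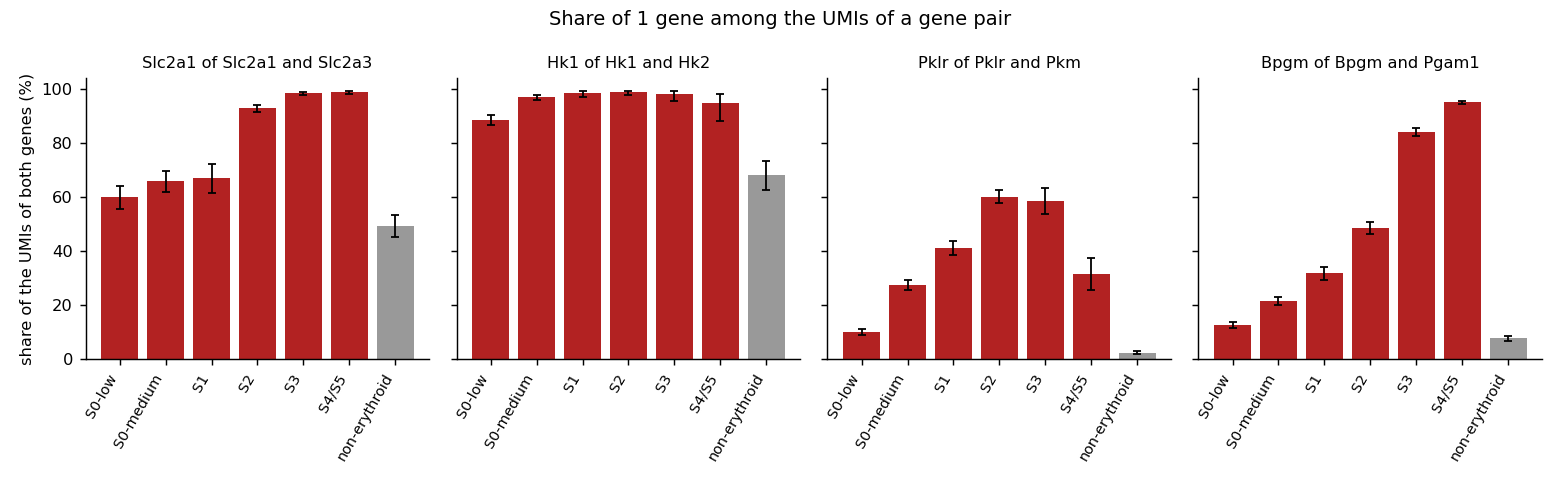
Share of 1 gene among the UMIs of a gene pair, in percent, with exact 95% intervals, in the 6 erythroid stages (red) and in the pooled non-erythroid cells (grey). Bpgm goes from 12.6% to 95.2% of Bpgm and Pgam1, Pklr peaks at 60.2% of Pklr and Pkm in S2, and Hk1 stays at 88.7% or more of Hk1 and Hk2 in the stages against 68.2% in non-erythroid cells.

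Set beside all genes, a gene was counted as higher or lower when its ratio was at least 2 or at most 0.5, among genes with at least 50 UMIs in the 2 populations. In S1 over S0-low, 1 of 10 members was higher (Pklr) and 2 were lower (Hk2 and Pkm), where 3.56% of 8994 genes were higher and 15.2% lower. Hk2, with 10 UMIs in S1 and 133 in S0-low, entered this count only through the group where it was high. The member counts were the same for non-globin CPM, with 3.82% of genes higher and 14.6% lower. With so few members these shares do not set the members apart from other genes.

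In S3 over S1, 2 of 9 measured members were higher (Slc2a1 and Bpgm) and 6 were lower (Hk1, Pfkl, Aldoa, Gapdh, Pkm and Ldha), where 4.55% of 7494 genes were higher and 61.2% lower. For non-globin CPM the same 2 were higher and 2 were lower (Pkm and Ldha), where 10.2% of genes were higher and 30.2% lower. The share of lower members was thus near that of all genes on the CPM scale, whereas Slc2a1 and Bpgm lay at percentiles 99.8 and 99.0.

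In S4/S5 over S3, 1 of 9 members was higher (Bpgm) and 3 were lower (Hk1, Pfkl and Pklr), with 0.290% of 5515 genes higher and 42.3% lower. For non-globin CPM 2 were higher (Bpgm at 3.73, 3.50–3.98, and Pkm at 2.23, 1.70–2.92) and 0 were lower, with 3.25% of genes higher and 7.92% lower. The calls of lower members in this step thus went with the scale.

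In S3 over the pooled non-erythroid cells, 3 of 10 members were higher, namely Slc2a1 at 13.4 times (11.7–15.3), Bpgm at 11.4 (9.68–13.3) and Pklr at 6.16 (4.44–8.56), where 6.40% of 9222 genes were higher. Hk2, Aldoa, Gapdh, Pkm and Ldha were lower, where 66.0% of genes were lower, and the lowest ratios were those of Hk2 at 0.0427 (0.0152–0.120) and Pkm at 0.0636 (0.0532–0.0761). Here too Hk2 was counted only through the group where it was high, with 5 UMIs in S3 and 103 in non-erythroid cells. For UMIs per cell the ratios of Slc2a1 and Bpgm were 6.34 and 6.24, and for non-globin CPM 27.2 and 28.3. For non-globin CPM Hk1 joined the higher members at 2.20 (1.78–2.73), with 11.7% of genes higher and 46.1% lower. This call depends on the mix of the pool. On the same scale Hk1 was at 0.691 (0.542–0.881) over megakaryocyte-like cells. Over the other named groups it ran from 2.54 (1.61–4.01) for granule-gene myeloid-like cells to 33.1 (8.10–135) for macrophage-like cells, which had 2 UMIs.

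**Figure D4:**
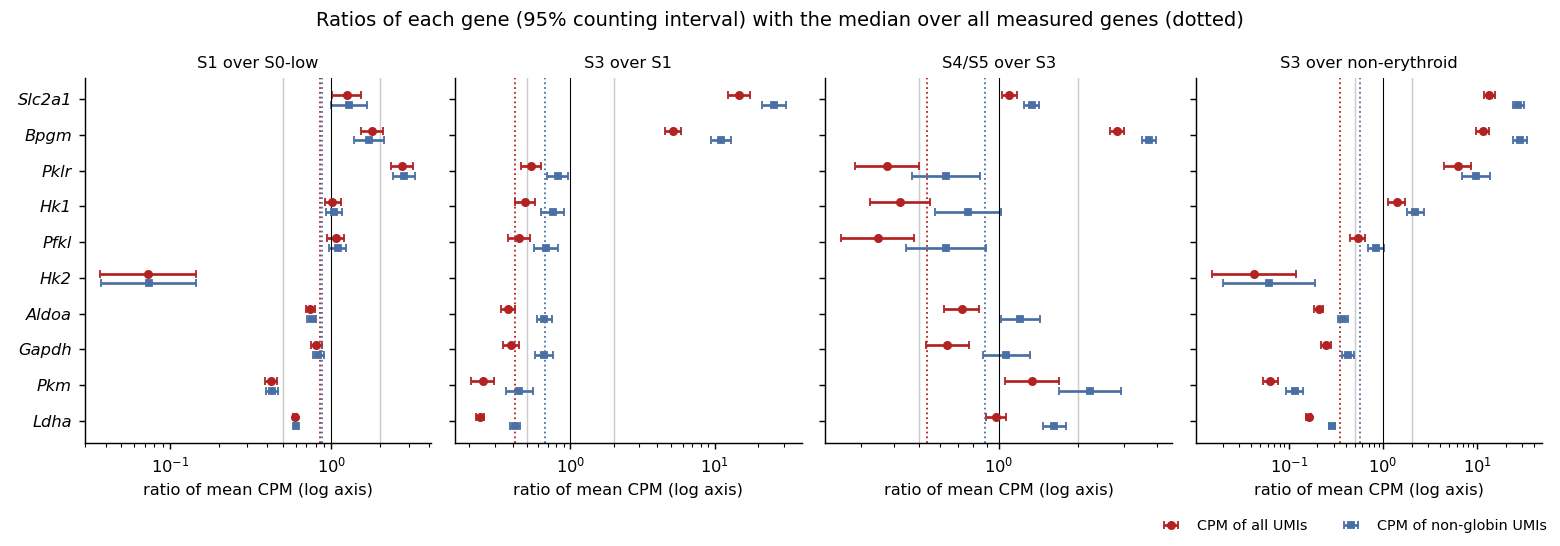
Ratio of mean level of each gene in 4 comparisons, on log axes, as CPM of all UMIs (red) and of non-globin UMIs (blue) with 95% counting intervals. Dotted lines are the medians over all measured genes, and grey lines mark ratios of 0.5 and 2. Slc2a1 (14.7) and Bpgm (5.12) stand apart in S3 over S1, and Hk2 is not drawn where it had under 50 UMIs.

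In the named non-erythroid groups, Slc2a1 and Bpgm stayed below 60 CPM in each. Pkm was at 569 to 690 CPM in the myeloid-like, macrophage-like and megakaryocyte-like groups and at 32 CPM (24.9–42.7) in hepatocyte-like cells, a level that its interval did not separate from S3. Ldha was highest in megakaryocyte-like cells at 2146 CPM (2061–2236) and lowest in the granule-gene myeloid-like and macrophage-like cells, at 902 (834–976) and 890 CPM (805–985). Hk2 was highest in macrophage-like cells at 37.2 CPM (21.1–65.1), though its interval overlapped that of the next group. Pklr had its highest non-erythroid level in hepatocyte-like cells, 16.2 CPM (10.6–25.8), liver being the other tissue known to use this enzyme. This interval overlapped those of all other named groups, which ran from 3.43 CPM on 6 UMIs (megakaryocyte-like) to 10.4 CPM on 8 UMIs (granule-gene myeloid-like).

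**Figure D5:**
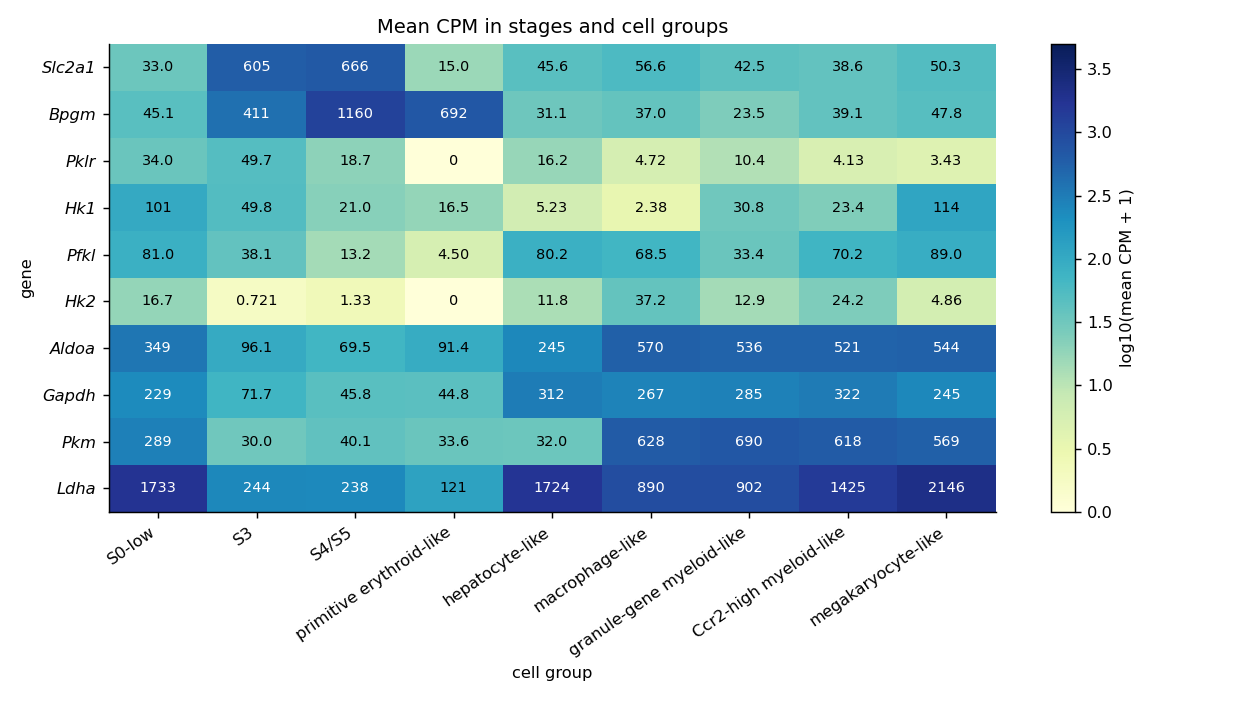
Mean CPM of the 10 genes (rows) in 3 erythroid stages, primitive erythroid-like cells and 5 non-erythroid groups (columns), with the value printed in each cell and colour showing log10 of mean CPM plus 1. Bpgm is at 692 CPM in primitive erythroid-like cells and at 1160 CPM in S4/S5, and Pkm is at 32 CPM in hepatocyte-like cells against 569 CPM or more in the other 4 groups.

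The rest of the pathway was read from lists of other glycolysis genes, transporters, regulators, pentose phosphate genes, gluconeogenesis genes and pyruvate dehydrogenase genes. Of 6 other glycolysis genes measured in S3 over S1, 6 were lower on the CPM scale, where 61.2% of all genes were, and 2 on the non-globin scale, where 30.2% were. Among them Tpi1, the triose isomerase, went from 352 to 111 CPM, Eno1, an enolase, from 135 to 50.5 CPM, and Gpi1, the glucose phosphate isomerase, from 77.5 to 22.0 CPM. The non-globin ratio was 0.523 (0.466–0.586) for Tpi1 and 0.253 (0.157–0.407) for Pfkm. In S3 over non-erythroid cells, 12 of 13 measured were lower on both scales, against 66.0% of all genes on the CPM scale and 46.1% on the non-globin scale.

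Of 7 other transporters measured in S3 over S1, 2 were higher and 3 lower on the CPM scale (all genes 4.55% and 61.2%), and 4 higher and 2 lower on the non-globin scale (10.2% and 30.2%). Their median ratio was 1.24 and 2.33 on these scales, against 0.416 and 0.668 over all genes. Slc16a10, an aromatic amino acid transporter of the monocarboxylate family, went from 60.8 to 172 CPM, 2.83 times (2.44–3.27). Slc2a4, the insulin-regulated transporter GLUT4, had 15 UMIs in S1 and 51 UMIs (10.9 CPM) in S3, 3.04 times (1.54–6.00). It entered the count of higher transporters only through S3, where it was high. The non-erythroid cells had 1 UMI of Slc2a4. Slc16a3, a lactate exporter, went the other way, from 45.6 CPM in S1 to 0.295 times that level (0.220–0.396) in S3. Bsg, the chaperone of the lactate transporters, was at 1021 CPM in S3 and 362 CPM in non-erythroid cells, 2.82 times (2.67–2.98).

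Of 5 regulators measured in S3 over S1, 0 were higher and 3 lower on the CPM scale, and 0 and 2 on the non-globin scale, lower shares near the 61.2% and 30.2% of all genes. Pdk1, which inhibits pyruvate dehydrogenase, went from 106 to 16.4 CPM, and its non-globin ratio was 0.217 (0.167–0.282). Minpp1, a phosphatase that can remove 2,3-bisphosphoglycerate, went from 289 CPM in S1 to 68.6 in S3 and 30.2 CPM in S4/S5, over stages in which Bpgm went up, with a non-globin ratio of 0.369 (0.320–0.424) for S3 over S1. Hif1a, the hypoxia factor, was at 25.9 CPM in S0-low and 12.8 CPM in S1.

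Of 7 pentose phosphate genes, 3 were lower in S3 than in S1 on the CPM scale (Pgls, Pgd and Rpia), where 61.2% of all genes were, while 1 was lower and 1 higher on the non-globin scale. Taldo1 was at 351 CPM in S1 and 656 CPM in S3. Of 7 pyruvate dehydrogenase genes 5 were lower on the CPM scale and 1 on the non-globin scale, where 61.2% and 30.2% of all genes were lower, with Pdha1, a subunit of the enzyme, at 161 and 43.4 CPM. Of the gluconeogenesis genes 2 of 6 could be measured in S3 over S1. On the CPM scale 1 was higher (Pcx) and 1 lower, and on the non-globin scale 1 was higher and 0 lower. Of all genes 4.55% were higher and 61.2% lower on the CPM scale, and 10.2% and 30.2% on the non-globin scale. Pcx, pyruvate carboxylase, was at 5.18 CPM in S1 and 17.3 CPM in S3, 3.35 times (2.01–5.58) on 100 UMIs. The UMI minimum is met on the sum of both stages, so its entry may rest on S3, where it was high.

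Genes with the most similar course were ranked by Pearson's r of log2(mean CPM + 10) over 11 groups, the 6 stages and 5 non-erythroid groups, among 6986 genes with at least 500 UMIs. The groups share 1 library and, in the stages, a globin share that changes in 1 direction, so r is a description. For Slc2a1 the nearest were Fam46c (0.989), Runx1t1 (0.987) and Slfn14 (0.985). For Bpgm they were Fam220a (0.979), Sowaha (0.972) and Fam46c (0.968), so 1 gene was listed for both. For Pklr they were Slc25a21 (0.979), Slc38a5 (0.961) and Psd (0.960), and for Hk1 they were Unc13d (0.961), Hmgb3 (0.953) and Sde2 (0.949). For Pkm they were Arrdc1 (0.988), Ripk3 (0.983) and AI413582 (0.980), and for Hk2 they were Gm2a (0.962), Ctnnbip1 (0.946) and Ifngr2 (0.945). For Ldha they included Gtf2i (0.990) and Agk (0.986), and for Pfkl they were Leo1 (0.973), Higd1a (0.965) and Eif2d (0.957). For Aldoa they were Capzb (0.995), Ntan1 and Bfar (0.991 each), and for Gapdh they were Rpn2 (0.987), Prkcsh and Naa60 (0.986 each).

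Free RNA in the droplets gives UMIs of other cells to each cell. The 12 hepatocyte markers, all with UMIs in every stage, had a summed level of 292 CPM in S0-low, 582 in S3 and 843 CPM in S4/S5, against 100585 CPM in hepatocyte-like cells. The sum went up with the stage, as did the CPM of Slc2a1 and Bpgm. Mean levels in hepatocyte-like cells were 45.6 CPM for Slc2a1 and 31.1 CPM (23.5–42.4) for Bpgm. The median level of hepatocyte-like cells, planned as a free RNA estimate, was 0 for Slc2a1, Hk1, Hk2, Bpgm, Pklr and Pkm and so tested nothing for these genes. For Pfkl, Aldoa, Gapdh and Ldha it lay above the S3 level, and no ratio of S3 over S1 was left after subtraction. These medians (59.9, 209, 305 and 1645 CPM) cannot be told apart from the hepatocyte-like cells' own transcripts. The subtraction therefore could not test free RNA for these 4 genes either. The part of free RNA in the levels was not tested.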

How the data were processed

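One CITE-seq experiment was used, with 1 cDNA library and the antibody library of its cells. Per the labels, the reads were processed with Cell Ranger and Seurat on mm10, and the authors deposited raw UMI counts per gene and raw antibody counts per cell, without normalization and before their filters on cells.

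Cells under 300 or over 5000 genes, or above 9% mitochondrial UMIs, were removed, and doublets were called with Scrublet (expected rate 6%), which marked 128 cells (1.63%). Stages were rebuilt from the antibodies, since gate positions are not given in the sources used here. Counts were scaled by the centred log ratio, cells above 95.8 summed counts of 5 lineage antibodies were left out, k-means gave 3 classes of Ter119 (borders 24.8 and 88.7 counts), and CD71 was split at 245 and 782 counts in Ter119-low and at 760 in Ter119-high cells. S2 needed CD71 above 782. Clustering (Leiden, resolution 0.8, 2000 variable genes, 16 components, 30 neighbours) left out the members and listed genes and gave 17 clusters. Clusters were named where 3 of their top 10 genes by fold were markers, or where most markers of exactly 1 list were at least 2-fold up, a rule set after the clusters were seen. A cluster of 59 cells led by Mest, Sparc and Dcn stayed unnamed. It and the named non-erythroid clusters were left out of the stages (245 cells, 231 of them from the 1552 in the S0-low gate).

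Levels of genes are means over cells of CPM, and sums over marker lists are CPM of pooled UMIs. Intervals are 95% (gamma for levels, weighted Poisson for ratios, Clopper-Pearson for shares) and cover counting error only. Only those of ratios were run on simulated counts, which were drawn from the Poisson model that these intervals assume. No cell had fewer than 2510 UMIs. A gene was measured in a comparison with at least 50 UMIs in its 2 populations. The members and lists were chosen with earlier results of these data known. Named were all 10 members, list genes past 2-fold with at least 200 UMIs (at most 8 a list), and the 3 genes most alike each member. Some results under this rule are not reported here. Slc2a4, Taldo1, Pcx, Ldhb and Slc2a3 were named outside this rule after their values were seen. Transcript ends were placed on NCBIM37 to look for copies. The promoter stretches came from RefSeq. The work used Python 3.11.15, scanpy 1.11.5, scikit-learn 1.9.0, numpy 2.4.6 and scipy 1.17.1 with random seed 7.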

Additional observations from a re-analysis of the deposited data

How the results depend on the processing

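No paired analysis was possible because the 2 samples are the RNA and antibody libraries of the same cells. There were 15 alternatives, which changed the unit, the antibody scale, the classes, the filters and the cells kept. Of the counts, members lower in S3 over S1 went from 6 to 2 with non-globin CPM and, because 4 members had no ratio, to 2 with free RNA subtracted. In S4/S5 over S3 non-globin CPM gave 2 higher and 0 lower. In S1 over S0-low there were 2 higher for UMIs per cell (with 1 lower), with antibodies scaled within each cell and with a Gaussian mixture. The Bpgm ratio of S3 over S0-low, 9.12, was 18.8 for non-globin CPM, 6.31 for UMIs per cell, 10.8 with log10 of the antibody counts, 15.6 with antibodies scaled within each cell and 12.3 with a Gaussian mixture. The Bpgm share in S3 was 81.2% with log10 counts and 88.8% with antibodies scaled within each cell. The other shares stayed within their intervals under the 11 alternatives run for them. Left aside are 16 values that subtraction of a free RNA estimate of 0 could not change. Not left aside are the subtractions for Pfkl and Aldoa in S1 over S0-low, which could not test free RNA either. Of the other 534 values of 38 member ratios, 403 stayed within the interval of the reported value, 125 moved out of it and 6, among ratios whose interval excluded 1, changed direction. The last were, in S4/S5 over S3, Aldoa (1.21) and Gapdh (1.07) with non-globin CPM, Slc2a1 (0.967) and Pkm (0.902) for UMIs per cell and Slc2a1 (0.903) with antibodies scaled within each cell, and, in S1 over S0-low, Gapdh (1.12) for UMIs per cell. In the 3 ratios whose interval held 1 there were 5 crossings of 1, among them Ldha in S4/S5 over S3 (1.63 with non-globin CPM and 1.18 with antibodies scaled within each cell). The cause was not tested beyond the globin share and depth that the unit alternatives change. Subtraction of free RNA was not run for S3 over non-erythroid cells, whose pool holds the cells it was measured in. Depth limits Hk2, with 5 to 10 UMIs a stage from S1 on, and Slc2a4.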
